A study of Mus musculus with 86 samples.

Results

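The genes described here belong to bone morphogenetic protein (BMP) signalling, and they are 9 rows of a deposited table of 12360 genes. They were chosen by symbol: the ligands Bmp2, Bmp4 and Bmp7, the secreted modulator Bmper, the inhibitory Smads Smad6 and Smad7, and the target genes Id1, Id2 and Id3. All 9 were in the table. The table gives RPKM (reads per kilobase of gene, scaled to the number of mapped reads) for 86 single cells of the mouse metanephros, the developing kidney. The kidneys were wild type, of a mixed strain background, from male and female embryos at 12.5 days post coitum (Theiler stage 20), and they were pooled and dissociated with trypsin before a microfluidic instrument (Fluidigm C1) captured the cells. The labels give no cell type and no group other than this pool. The 86 cells are therefore 1 sample: values are described over cells, every SD is a spread between cells, and no difference was tested.

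BMPs are secreted dimers of the TGF-beta family. They bind paired type I and type II receptor kinases, which phosphorylate Smad1, Smad5 and Smad9. These enter the nucleus with Smad4 and raise the transcription of target genes such as the Id genes, whose products bind and block basic helix-loop-helix transcription factors. In the developing kidney Bmp7 is known for keeping nephron progenitors alive and dividing, and Bmp4 for restraining budding of the ureter and for shaping the mesenchyme around it.

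Cells were put in 3 classes. Bud cells had a Mal2 RPKM of at least 100, Six2-detecting cells had a Six2 RPKM of at least 1 and were not bud cells, and the others are called remaining cells. Mal2 encodes a membrane traffic protein of epithelia, and Six2 the transcription factor that marks nephron progenitors. This gave 7 bud cells, 46 Six2-detecting cells and 33 remaining cells. The Mal2 limit fell in a wide gap, between 3.41 in the highest other cell and 1219 in the lowest bud cell. For Six2 the highest remaining cell had 0.527 and the lowest Six2-detecting cell 1.50, and 7 Six2-detecting cells lay below 10. Markers that the limits did not use went with the bud label. Ret, the receptor of the ureteric bud tip, was detected (RPKM of at least 1) in 6 of 7 bud cells and in none of the others. Cdh1, encoding E-cadherin, was detected in 7 of 7 bud cells, 0 of 46 Six2-detecting and 1 of 33 remaining cells. In 3 of the 7 bud cells Six2 was also detected. A summed list of 14 stroma genes had a median RPKM of 943 in remaining cells (range 76.4 to 1845), 420 in Six2-detecting cells (88.1 to 1245) and 74.8 in bud cells (4.10 to 555). The median number of detected genes was 6488 in bud, 6256 in Six2-detecting and 6087 in remaining cells, and the number of reads behind the values is unknown.

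The promoters of Id2 and Id3 are shown because these were the members read at high levels in nearly every cell. Both are the 250 bases before the RefSeq start on GRCm38.p6, a later build than that of the table, read in the direction of the gene: Id2 from chr12:25096093-25096342 on the minus strand and Id3 from chr4:136143572-136143821 on the plus strand. Capitals mark matches, on either strand, to GGCGCC (a GC-rich element known from BMP-responsive genes), CAGAC (read GTCTG on the other strand, the core of the Smad-binding element) or CCAAT (read ATTGG on the other strand, the CCAAT box).
Id2: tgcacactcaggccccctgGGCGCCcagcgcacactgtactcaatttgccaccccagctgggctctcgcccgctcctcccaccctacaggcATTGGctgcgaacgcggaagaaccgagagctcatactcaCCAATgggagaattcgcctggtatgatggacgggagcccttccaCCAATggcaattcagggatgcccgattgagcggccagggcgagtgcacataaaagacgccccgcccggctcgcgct
Id3: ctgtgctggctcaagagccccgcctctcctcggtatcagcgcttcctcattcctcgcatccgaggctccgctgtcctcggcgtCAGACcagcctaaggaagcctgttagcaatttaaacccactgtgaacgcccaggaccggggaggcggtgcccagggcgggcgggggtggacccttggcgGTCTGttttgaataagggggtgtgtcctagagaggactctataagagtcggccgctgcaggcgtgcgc
The Id2 window held GGCGCC once, 231 to 226 bases before the start, and CCAAT 3 times. The Id3 window held CAGAC 2 times, 167 to 163 and 68 to 64 bases before the start. Of 32851 promoters of the same length, 9.59% held GGCGCC, 42.2% CAGAC and 33.8% CCAAT, so the last 2 are common letters. These matches are a description of the letters and show no binding. In all, 5 of the 9 genes had a promoter entry, and in those of Bmp4, Bmper and Smad6 none of these 3 motifs was found within this window.

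The table's coordinates are on mouse build mm9 and span whole genes. Bmp2 lies on chromosome 2 (133378935 to 133388621, gene 12156), as do Bmp7 (172695189 to 172765794, gene 12162) and Id1 (152562010 to 152563146, gene 15901). Bmp4 lies on chromosome 14 (47003196 to 47010274, gene 12159), Id2 on chromosome 12 (25778664 to 25780957, gene 15902) and Id3 on chromosome 4 (135699737 to 135701307, gene 15903). Bmper (23027520 to 23289646, gene 73230) and Smad6 (63800883 to 63869866, gene 17130) lie on chromosome 9, and Smad7 on chromosome 18 (75527019 to 75555588, gene 17131).

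Over all 86 cells the Id genes stood far above the other members. Between genes RPKM corrects for length alone, so levels are set side by side as a rough guide. The median RPKM was 554 for Id3 (mean 636, SD 371), 338 for Id2 (mean 416, SD 312) and 60.9 for Id1 (mean 85.3, SD 90.9). Id3 was detected in 86 of 86 cells, Id2 in 85 and Id1 in 72. Bmper had a median of 4.13 (mean 21.8, SD 53.2) and was detected in 48 cells. Bmp4 and Bmp7 had nearly the same mean, 10.1 (SD 31.2) and 9.76 (SD 20.3), a difference far below the spread between cells, but Bmp4 was detected in 23 cells and Bmp7 in 37. Smad7 was detected in 37 cells (mean 4.24, SD 6.58), Bmp2 in 16 (mean 2.23, SD 6.24) and Smad6 in 13 (mean 1.39, SD 5.30). The ligands and inhibitory Smads were thus read in a minority of cells each, and the Id genes in most.

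**Figure D1:**
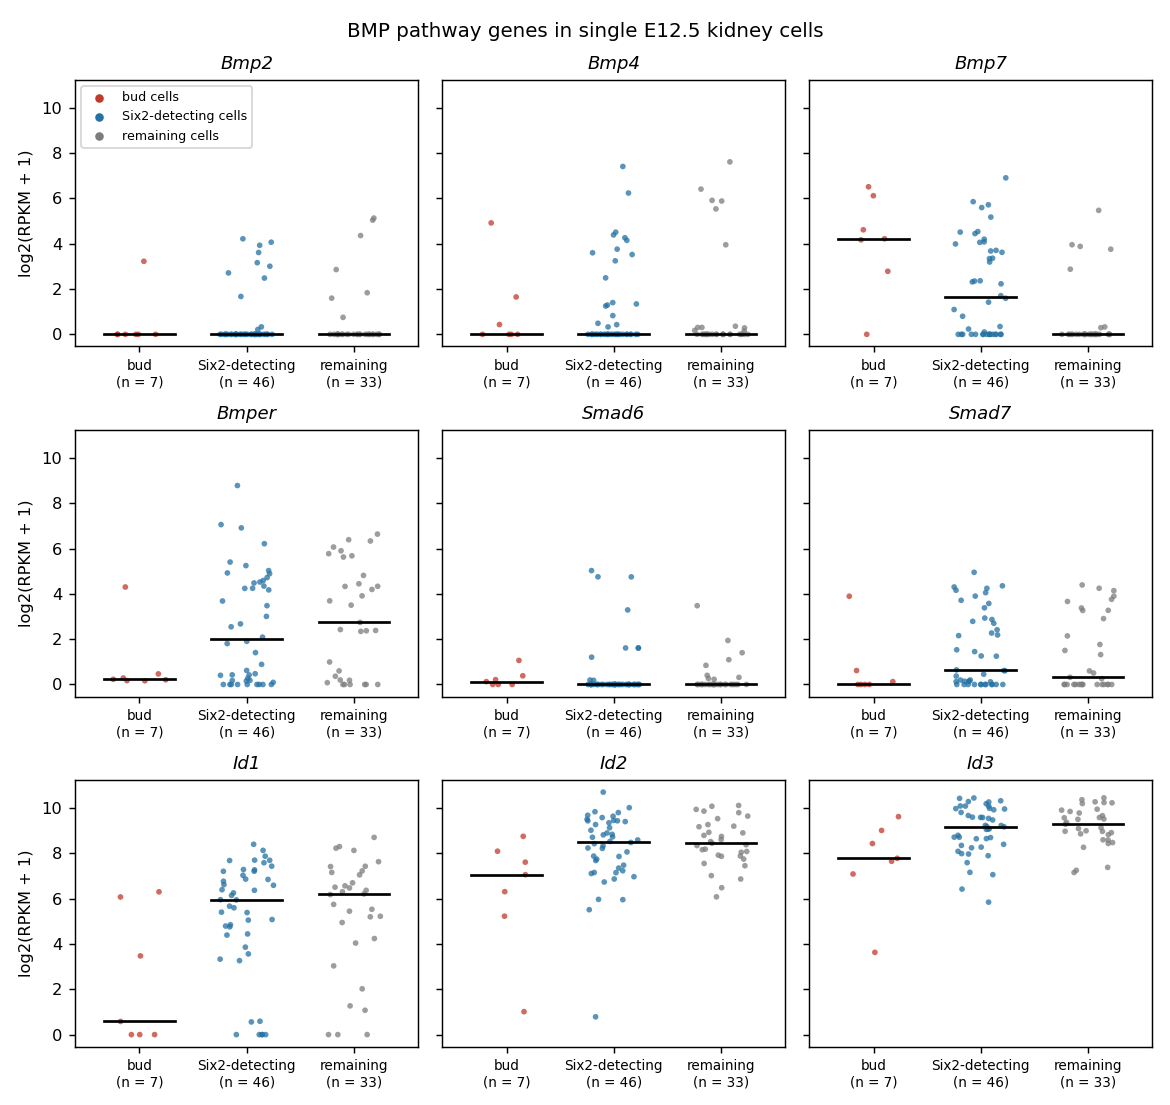
Level of each gene in single cells as log2(RPKM + 1), in bud, Six2-detecting and remaining cells; each point is a cell and the black line is the median of the class. Id2 and Id3 are high in nearly all cells, Bmp7 has its highest median in bud cells, and Bmp2, Bmp4 and Smad6 have a median at or close to 0 in each class.

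Bmp7 was detected in larger shares of bud and Six2-detecting than of remaining cells. In the 7 bud cells its RPKM was 90.4, 68.6, 23.5, 17.6, 17.0, 5.88 and 0, so 6 of 7 cells detected it (95% interval 42.1 to 99.6%). It was detected in 26 of 46 Six2-detecting cells (56.5%, 41.1 to 71.1%), with a lowest value of 0, a median of 2.14 and a highest of 119. It was detected in 5 of 33 remaining cells (15.2%, 5.11 to 31.9%), with a median of 0 and a highest value of 43.4. The classes overlapped, because each held cells at 0. Intervals here are exact Clopper-Pearson intervals and cover counting error only.

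Bmp4 was read in all classes, in few cells each. In bud cells it was 29.3, 2.14 and 0.350, and it was listed at 0 in the other 4. It was detected in 15 of 46 Six2-detecting cells (32.6%, 19.5 to 48.0%) and in 6 of 33 remaining cells (18.2%, 6.98 to 35.5%). The 6 remaining cells were high when they had it, with a median of 58.7 between 14.5 and 195. The 15 Six2-detecting cells with Bmp4 had a median of 11.1 between 1.38 and 169. The remaining cells thus had a smaller share with Bmp4 and a higher median where it was detected, and both the intervals of the shares and the levels overlapped.

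Bmp2 was read in 1 of 7 bud, 9 of 46 Six2-detecting and 6 of 33 remaining cells. Its highest values were 34.1, 31.9 and 19.5, all in remaining cells that also held Pax8, a transcription factor of the induced nephron and bud, at 373, 173 and 67.9. Of the 16 cells with Bmp2, 12 detected Pax8, which was detected in 28 of 86 cells. From the 2 frequencies alone 5.21 such cells are obtained. Outside the bud cells Bmp2 was detected in 11 of 25 cells with Pax8 and in 4 of 54 without it. Among all genes considered, Pax8 was also the gene whose level ran most like that of Bmp2, as given below.

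Bmper encodes a secreted protein that binds BMPs and can dampen or promote their signal. It was below the detection limit in 6 of 7 bud cells, which lay between 0.119 and 0.382, and cell 47 had 18.7. It was detected in 26 of 46 Six2-detecting cells (56.5%, 41.1 to 71.1%), with a median of 3.00 and a highest value of 439. In remaining cells it was detected in 21 of 33 (63.6%, 45.1 to 79.6%), with a median of 5.69 and a highest value of 98.6. Among remaining cells the mean was 25.9 (SD 31.2) in the 25 cells with Foxd1, a stromal progenitor gene, and 7.03 (SD 10.4) in the 8 without it.

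Smad6 and Smad7 bind activated receptors or Smads and hold the pathway back, and both are known targets of it. Smad6 was read above 5 RPKM in only 5 cells, at 31.6, 26.0, 25.9 and 8.79 in Six2-detecting cells and 10.1 in a remaining cell. Its highest bud value was 1.09. Smad7 was read in more cells, 22 of 46 Six2-detecting (highest 30.0) and 14 of 33 remaining cells (highest 20.0). Among bud cells it was 13.9 in cell 18, and the other 6 lay at 0.531 or below. Across the 86 cells the Pearson correlation of log2(RPKM + 1) between Smad6 and Smad7 was -0.05, a value close to 0.

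The Id genes were lower in bud cells than elsewhere. Id1 was 78.0, 66.5, 10.1 and 0.496 in 4 bud cells and listed at 0 in the other 3. It was detected in 39 of 46 Six2-detecting cells (median 60.9, highest 337) and in 30 of 33 remaining cells (median 73.1, highest 417). Id2 was 431, 273, 195, 132, 78.4, 36.5 and 1.02 in bud cells. Its median was 363 in Six2-detecting cells (range 0.723 to 1668) and 349 in remaining cells (66.7 to 1109). Id3 was 788, 516, 345, 219, 200, 135 and 11.4 in bud cells. Its median was 579 in Six2-detecting cells (56.6 to 1395) and 625 in remaining cells (142 to 1401). For each Id gene the bud cells overlapped the others, and Six2-detecting and remaining cells differed by far less than their spread. The bud cells themselves were uneven: cells 3 and 74, with the highest Bmp7, had the 2 lowest Id3 values. Cell 53, listed at 0 for Bmp7, had the highest Id3. Yet cell 47 had the next highest Bmp7 (23.5), Id3 at 516, and the highest Id1 and Id2 of bud cells.

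Set against all 79 other cells, bud cells had more Bmp7 and less of most other members. Ratios here are log2 ratios of (mean RPKM + 1), so they understate differences of low genes, and a ratio of at least 1 in size is called higher or lower. Of the 9 genes, 1 was called higher, beside 9.62% of all genes, and 6 were called lower, beside 21.9% of all genes. The median ratio of the 9 was -1.06, beside -0.21 over all genes. Bmp7 had a mean of 31.9 (SD 34.1) against 7.80 (SD 17.7), a log2 ratio of 1.90. Bmper was at -2.67, Id1 at -1.99, Id2 at -1.41, Id3 at -1.07, Bmp4 at -1.06 and Smad6 at -1.01. Smad7 (-0.82) and Bmp2 (-0.60) were not called. Bmp4, Id3 and Smad6 lay so close to the limit that leaving out 1 cell ended their calls: with each cell left out in turn, Bmp4 ranged from -3.03 to -0.73, Id3 from -1.48 to -0.85 and Smad6 from -1.19 to -0.77. Bmp4 was at -3.03 without bud cell 3. From means of log2 values, Bmp4 was at -0.16 and Smad6 at -0.18, and neither was called. Without bud cell 47, Bmper was at -4.35, Id1 at -2.73 and Bmp2 at -1.73, and without bud cell 18 Smad7 was at -2.30.

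Six2-detecting and remaining cells differed mainly in Bmp7. Of the 9 genes, 2 were called higher in Six2-detecting cells, beside 7.4% of all genes, and none lower, beside 7.65%. Bmp7 had a mean of 11.4 (SD 21.5) against 2.76 (SD 8.35), a log2 ratio of 1.72, and of 2.32 without remaining cell 68. Smad6 was at 1.05, a value that rests on few cells and was under the limit when any 1 of cells 4, 8, 34 or 43 was left out (lowest 0.72, without cell 4). Id1, Id2 and Id3 were at -0.20, -0.04 and -0.08, near the all-gene median of 0.02. Bmper was at 0.22 with all cells and at -0.41 without cell 41, whose 439 is the highest value of this gene. Bmp4 was at -0.70 and ranged from -1.41 without cell 4 to -0.01 without cell 13, so its value rested on single cells.

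**Figure D2:**
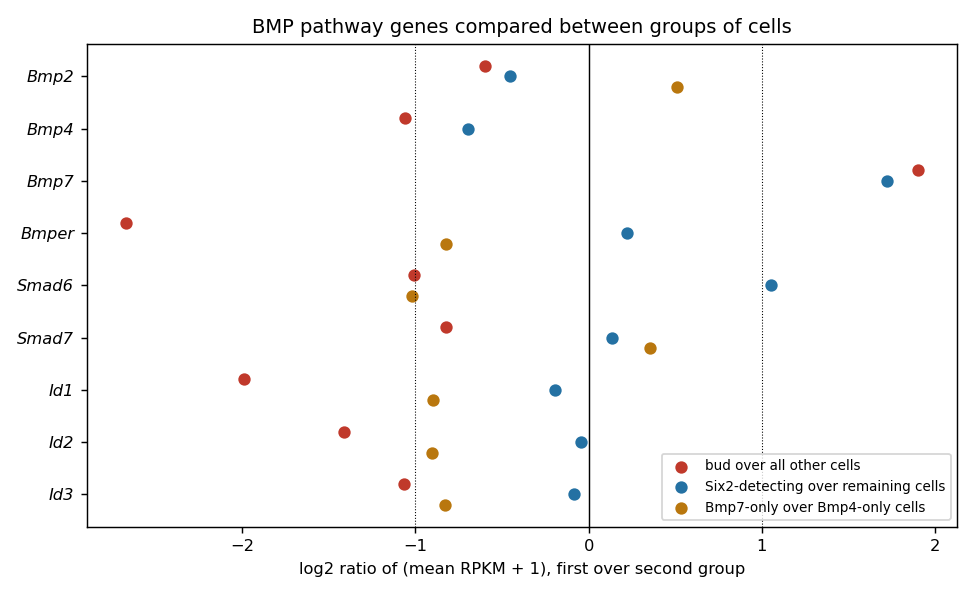
Log2 ratio of (mean RPKM + 1) for each gene in 3 comparisons: bud over all other cells, Six2-detecting over remaining cells, and Bmp7-only over Bmp4-only cells; dotted lines mark a ratio of 1 in size. Bmp7 lies to the right in both class comparisons (1.90 and 1.72), and the 3 Id genes lie left of 0 for bud cells and for Bmp7-only cells; Bmp4 and Bmp7 define the last comparison and are left out of it.

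Bmp7 and Bmp4 were mostly read in different cells, in numbers close to those their frequencies give. Bmp7 without Bmp4 was detected in 28 cells, Bmp4 without Bmp7 in 14, both in 9 and neither in 35. From the frequencies 9.90 cells with both are obtained, and the Pearson correlation of log2(RPKM + 1) was 0.00 over the 86 cells. Cells with both made up 24.3% of cells with Bmp7 and 39.1% of cells with Bmp4. By class, the 28 Bmp7-only cells were 5 bud, 18 Six2-detecting and 5 remaining cells, and the 14 Bmp4-only cells were 1, 7 and 6. Of the 9 cells with both, 8 were Six2-detecting and 1 was a bud cell, while 0 of 33 remaining cells had both (exact interval 0 to 10.6%). With neither ligand there were 13 Six2-detecting, 22 remaining and 0 of 7 bud cells (0 to 41.0%). Of all 3 ligands, 31 cells had none, 36 had 1, 17 had 2 and 2 had all 3.

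**Figure D3:**
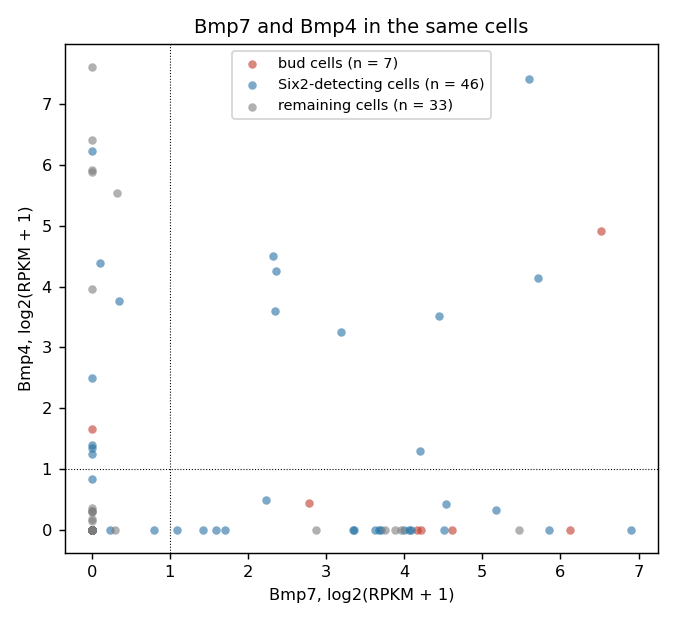
Bmp7 against Bmp4 in each of 86 cells, both as log2(RPKM + 1), coloured by class; dotted lines mark the detection limit of 1 RPKM, and cells at 0 for both overlie each other. The points lie along both axes, 28 cells with Bmp7 alone and 14 with Bmp4 alone, and the 9 cells with both are Six2-detecting cells but for 1 bud cell.

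The Id genes were lower in Bmp7-only than in Bmp4-only cells, by an amount smaller than the limit for a call. Median RPKM for Id1 was 29.1 in Bmp7-only cells (range 0 to 337) and 81.0 in Bmp4-only cells (0 to 417). For Id2 it was 282 (36.5 to 766) against 586 (61.7 to 1109), and for Id3 373 (11.4 to 1377) against 888 (192 to 1321). The ranges overlapped for all 3. Cells with neither ligand had medians of 88.0, 357 and 725, and cells with both had 60.7, 232 and 545. Bmp7-only cells thus had the lowest median of Id1 and Id3, and Bmp4-only cells the highest of Id2 and Id3. The log2 ratios of Bmp7-only over Bmp4-only cells were -0.90 for Id1, -0.91 for Id2 and -0.83 for Id3, beside an all-gene median of 0.02. From means of log2 values they were -1.80, -0.84 and -1.07, past the limit for Id1 and Id3. With both ligands detected at an RPKM of at least 10 they were -0.40, -0.81 and -0.53, and with any value above 0 counted as detected they were -0.27, -0.83 and -0.74. The direction was thus the same for all 3 genes under these settings, and the size for Id1 depended on them.

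Of the 7 members that did not define these cells, none was called higher, beside 11.3% of all genes, and 1 was called lower, beside 9.1%. That was Smad6 at -1.02, which was at 0.19 without Bmp4-only cell 43. Bmper was at -0.83, with means of 14.7 (SD 25.7) and 26.9 (SD 28.8), and at -1.23 without Bmp7-only cell 90. Smad7 was at 0.35. Bmp2 was at 0.51 and was detected in 9 of 28 against 1 of 14 cells. That 1 Bmp4-only cell, cell 5, had the highest Bmp2 of all cells, and without it the ratio was 2.27.

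Other genes moved with the same division of cells, and their part in the Id values was not tested. The summed stroma list of 14 genes had a median of 256 in Bmp7-only cells (range 4.10 to 889), 600 in Bmp4-only cells (76.4 to 1688), 527 in cells with both (15.8 to 875) and 908 in cells with neither (88.1 to 1845). The summed nephron progenitor list, also of 14 genes, had medians of 835, 427, 500 and 262 in the same order. A mural list, with 5 of 6 genes in the table, had medians of 1.87 and 10.1 in Bmp7-only and Bmp4-only cells. The number of detected genes was similar, with medians of 6246 and 6491. With bud cells left out, the log2 ratios were -0.74 for Id1, -0.86 for Id2 and -0.70 for Id3. Within Six2-detecting cells alone, a comparison chosen after seeing the data, they were -1.02, -0.87 and -0.70. Median Id3 there was 408 in 18 Bmp7-only cells, 1007 in 7 Bmp4-only cells, 645 in 8 cells with both and 774 in 13 with neither. Bmp4 itself was low in most of these 7 cells, with a median of 4.63 (range 1.38 to 74.5), and 3 of them reached 10. In the 18 cells Bmp7 had a median of 11.9 (1.14 to 119), and 11 of them reached 10. In these 18 Bmp7-only and 7 Bmp4-only cells the summed lists also differed, with medians of 267 and 502 for stroma, 1089 and 709 for nephron progenitor and 48.9 and 128 for the 16 bud genes in the table. The median number of detected genes there was 5992 and 6717. The part of these in the Id values within Six2-detecting cells was not tested.

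The comparisons with cells that lack both ligands share those 35 cells, so they are given side by side only. For Bmp7-only cells the log2 ratios were -0.64 for Id1, -0.52 for Id2 and -0.60 for Id3, and for Bmp4-only cells 0.25, 0.38 and 0.23. Bmper was at -0.94 in the first and -0.12 in the second. A single cell with both ligands could have almost no Id2: bud cell 3 had 1.02 and Six2-detecting cell 62 had 0.723, the 2 lowest Id2 values of all cells, and both had Bmp7 and Bmp4. Six2-detecting cell 4, also with both, had Id2 at 892 and Id3 at 1395.

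**Figure D4:**
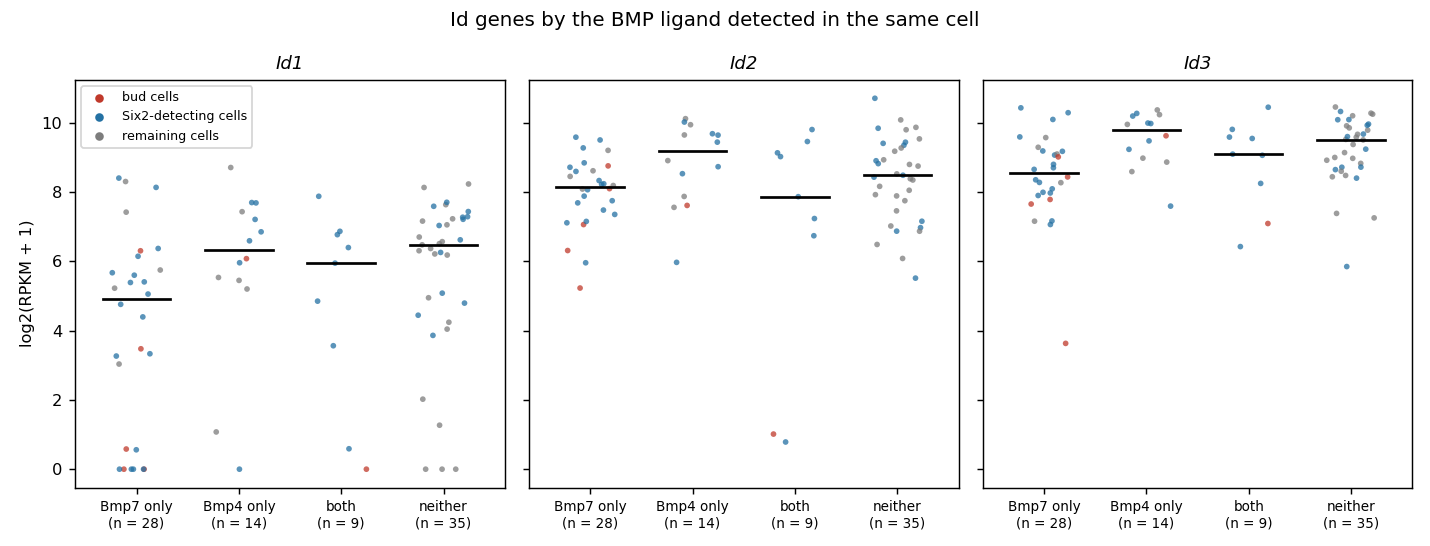
Id1, Id2 and Id3 in single cells as log2(RPKM + 1), by the BMP ligand detected in the same cell; points are cells coloured by class and black lines are medians. Medians of Bmp7-only cells lie below those of Bmp4-only cells for each gene (29.1 against 81.0, 282 against 586 and 373 against 888 RPKM), and the points overlap.

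By a fixed rule of level, detection and size, the genes that differed most between Bmp7-only and Bmp4-only cells were named. Higher in Bmp7-only cells were Wdr24 (log2 ratio 3.06), Gdnf (3.04), Tle4 (2.90), Cxxc4, Hibch, Mkrn2, Tmem188, C87436, Aldh9a1 and Sec22a, the last at 2.42. Gdnf encodes the ligand of Ret that draws out the ureteric bud, and it was detected in 16 of 28 against 3 of 14 cells. Lower were Gata2 (-5.16), Col23a1 (-3.57), 1190002N15Rik (-2.97), Ap4b1, Dpy19l4, Emp2, Zfp33b, Tmem119, Tomm40l and Tmem175, the last at -2.31. Gata2, a transcription factor known as a BMP target, was detected in 0 of 28 Bmp7-only and 7 of 14 Bmp4-only cells, with means of 0.0290 and 35.7. These are the extremes of 12360 ratios between 28 and 14 cells.

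Among Six2-detecting cells the members also differed by Cited1, which marks the least committed nephron progenitors. This split, chosen after seeing the data, set 17 cells without Cited1 against 29 with it. Of the 9 members, 3 were called higher without Cited1, beside 8.09% of all genes, and 2 lower, beside 10.4%. Bmper was detected in 13 of 17 cells without Cited1 (median 17.9, highest 439) and in 13 of 29 with it (median 0.536, highest 132), a log2 ratio of 1.44. Without cell 41, which holds the highest value and is 1 of 5 cells with few detected genes, the ratio was 0.21. From means of log2 values with all cells, Bmper was at 1.59 and the other 4 called members were not called, with Bmp2 at -0.58, Bmp7 at -0.97, Bmp4 at 0.31 and Smad6 at 0.55. Bmp7 was detected in 7 of 17 and 19 of 29 cells, at -1.06, and ranged from -1.68 without cell 4 to -0.66 without cell 11. Bmp2 was detected in 2 of 17 and 7 of 29 cells, at -1.39. Smad6 was at 1.27, and at 0.66 without cell 4 and 2.07 without cell 34. Bmp4 was at 1.00, and at -0.90 without cell 4 and 1.66 without cell 21. For Bmp4 and Bmp7, which lay at the limit, leaving out any of several other cells also ended the call, and Smad6 was at 0.81 without cell 43. Id1, Id2 and Id3 were at 0.14, 0.58 and 0.45. In the authors' deposited table of 450 genes, Bmper is the only member, with a signed fold of 6.42 for cells called six2only over cells called six2andcited1. That table holds 35 cells, bud cells 47 and 57 among them, and its columns do not show which class each cell was in, so its fold compares other groups than the 17 and 29 cells above.

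Wider parts of the pathway were read from fixed lists, with the same limit for a call. Over all genes, 9.62% were called higher and 21.9% lower in bud cells, with a median of -0.21, and with lists this short several of the counts below lie near those shares. Of 11 receptors and co-receptors in the table, 3 were called higher and 2 lower in bud cells (median -0.31). Bmpr1b, a type I receptor, was detected in 6 of 7 bud cells and 12 of 79 others, with a log2 ratio of 2.60. Acvr1, another type I receptor, was at 1.18 from 2 bud cells, and the type II receptors Bmpr2 and Acvr2a were at -2.23 and -1.72. Acvr2b, also a type II receptor and named after its value was seen, was at 0.60 and not called. Of 8 extracellular antagonists and modulators, 1 was higher and 3 lower (median -0.56). Sostdc1, a secreted BMP antagonist, was detected in 3 of 7 bud cells and 1 of 79 others, at 2.56, and Twsg1 in 7 of 7 and 59 of 79, at 0.09. Of 12 Smads and their regulators, none was higher and 4 were lower (median -0.31). The 4 were Pmepa1, an inhibitor of TGF-beta signalling, at -1.66, Tab1, an adaptor of the kinase TAK1, at -1.41, and, named after their values were seen, Smad5 at -1.35 and Smad9, which was listed at 0 in every bud cell and detected in 6 of 79 others. The ubiquitin ligases Smurf1 and Smurf2, which mark Smads and receptors for breakdown, were at 0.87 and 0.95 and not called. Of 7 other ligands and processing enzymes, none was higher and 4 were lower (median -1.08).

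Of 8 further target genes, 3 were higher and 3 lower in bud cells (median -0.74), beside the same 9.62% and 21.9% of all genes. Gata3, which is itself a bud gene, had a mean of 156 against 3.72 and a log2 ratio of 5.06, and Tbx3, a T-box repressor, was at 3.04. Gata2 was at -2.04 and Stat3 at -2.13. Gata3 and Bmpr1b are also in the marker lists of bud and induced nephron.

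Between Six2-detecting and remaining cells the counts of called genes in these lists stand beside 7.4% of all genes higher and 7.65% lower. Median ratios were -0.66 for the other ligands and processing enzymes, -0.52 for receptors, -0.77 for antagonists, 0.07 for Smads and regulators and -0.61 for target genes, beside 0.02 over all genes. None of the 7 ligands and enzymes and none of the 8 target genes had a ratio above 0. Of the 7 other ligands and processing enzymes, 2 were lower and none higher. Of the 11 receptors and co-receptors, 2 were lower and none higher: Tgfbr3, a co-receptor, at -1.53 and Rgma, a BMP co-receptor, at -1.15. Of the 8 antagonists, 1 was higher and 2 lower. Fstl1, a secreted BMP-binding protein, was detected in every cell of both classes and had a mean of 268 in Six2-detecting and 610 in remaining cells, a log2 ratio of -1.19. Chrdl1, a chordin-like antagonist, was detected in 8 of 46 Six2-detecting cells and was listed at 0 in every remaining cell. None of the 12 Smads and regulators was called, and of the 8 target genes 1 was lower, Gata3 at -2.17.

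Between Bmp7-only and Bmp4-only cells, 1 of the 11 receptors was higher and 2 were lower, beside 11.3% and 9.1% of all genes. Bmpr1b was detected in 10 of 28 against 0 of 14 cells, and 5 of the 28 are bud cells. Bmpr2 was at -1.43 and Acvr2a at -1.85, the latter detected in 4 of 28 against 9 of 14 cells. Of the 8 antagonists none was higher and 4 were lower (median -0.97). Of the 12 Smads and regulators 3 were higher and 1 lower, with Smurf1 at 1.31 and Zfyve16, an anchor for receptor-bound Smads, at -1.12. Of the 8 target genes 1 was higher and 3 were lower, with Id4, the fourth Id gene, at -1.75 and detected in 2 of 28 against 4 of 14 cells. Of the 7 other ligands and processing enzymes none was higher and 3 were lower (median -0.13). Median ratios of the other lists were 0.21 for receptors, 0.12 for Smads and regulators and -0.35 for target genes.

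The genes most like each member were found by the Pearson correlation of log2(RPKM + 1) over the 86 cells, among 10650 genes detected in at least 10 cells. The cells share 1 pool and differ in the number of detected genes, so these values are descriptions. The Id genes were most like each other: Id1 and Id3 had 0.62 (0.57 without bud cells), Id2 and Id3 0.55 (0.53) and Id1 and Id2 0.48 (0.38). Over all 86 cells the 2 genes most similar to each Id gene were the other Id genes. Without bud cells this did not hold for Id1 and Id2: Tex10 had 0.47 with Id1, above Id2 (0.38), and Gstm5 had 0.53 with Id2, slightly above Id3. Genes were not ranked again without bud cells, so it is not shown whether this held for Id3. Next to Id3 came Nr2f2 at 0.44, which was 0.03 without the bud cells. Bmp2 was most like Pax8 (0.57), Tomt (0.49) and 4933407C03Rik (0.46). Bmp4 was most like Ptx3 (0.58), Zfp536 (0.58) and Nkd1 (0.54). Bmp7 was most like Spint2 (0.50), Zfp180 (0.49) and Cxcr4 (0.48), which were 0.40, 0.38 and 0.36 without bud cells.

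Bmper was most like Specc1 (0.42), Zzef1 (0.40) and Eci1 (0.37), Smad6 like Hdac8 (0.56), Sema6d (0.55) and Pygl (0.47), and Smad7 like Fam126a (0.41), Gm129 (0.40) and Ppapdc1b (0.40). No member outside the Id genes had another member among its 3 most similar genes. Bmp7 was weakly negative with Id2 (-0.33) and Id3 (-0.33), and -0.20 and -0.17 without bud cells. The correlation of a member with the number of detected genes was highest for Bmp4, at 0.27, and lay between -0.12 and 0.17 for the other 8.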

How the data were processed

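RNA was measured in 86 single cells of 1 pool of kidneys. The submitters' processing notes name TopHat 1.4.1, DESeq and the build mm9, without saying what each was used for. The authors deposited RPKM values, and their table lists only genes with RPKM above 3 in at least 3 cells, as checked on its values. A second table holds the authors' signed fold between cell classes, a score used here only for Bmper, and RPKM of 35 cells, not used here. Another column of the first deposited table, an other kind of value, counts the cells past that limit. Read totals are not given in the sources used here.

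The genes, lists and comparisons were chosen with earlier results of these data known. Detection means an RPKM of at least 1. Groups were compared by the log2 ratio of (mean RPKM + a pseudocount of 1) over all 12360 genes. Since all cells are 1 sample, no test was made. Named genes of a list are among the 2 highest and 2 lowest ratios where the mean RPKM reached 1 in either class. For Bmp7-only and Bmp4-only cells, the 10 highest and 10 lowest ratios are named among genes whose mean RPKM reached 10 in the higher class, in at least 50% of whose cells they were detected. Likeness names the 3 highest correlations. Shares have exact 95% intervals for counting error. No doublet caller was run. Per the labels' protocols, chambers were inspected by microscope, and 3 of the 7 bud cells also detected Six2. Detected genes ranged from 3458 to 7100 per cell, and 5 cells lay more than 3 median absolute deviations below the median, all kept.

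Alternatives were other pseudocounts, means of log2 values, rescaled RPKM, a filter on low means, other detection limits, and leaving out the 5 cells or the bud cells. Leaving out each cell in turn, the Six2-detecting cells alone, and the comparison by Cited1 with its alternatives were chosen after seeing the data. The splits of cells by Foxd1 and by Pax8 were not among the planned comparisons either. Python 3.11.15, numpy 2.4.6, pandas 2.3.3, scipy 1.17.1 and matplotlib 3.10.9 were used. The calculation was also run on simulated data, and the outcome of that run is not given here. It is thus not shown that ratios are free of bias for genes read in few cells, such as the ligands and inhibitory Smads.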

Additional observations from a re-analysis of the deposited data

Results flagged for a closer look

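Single cells that stood apart were looked for in bud cells and in the 9 cells with both ligands, over 18 pairs of gene and group. The gap to the nearest cell was large for the group's range in 9 of them. Chance gives about 1 in 20 for normally distributed values, and RPKM values with many at 0 are not so distributed. For genes read in few cells, a single detecting cell is enough. Among bud cells, cell 47 was highest for Bmp2 (8.35, next 0), Bmper (18.7, next 0.382) and Smad6 (1.09, next 0.304). Bud cell 3 was highest for Bmp4 (29.3, next 2.14) and bud cell 18 for Smad7 (13.9, next 0.531). Among cells with both ligands, cell 4 was highest for Bmp4 (169, next 29.3) and Smad6 (31.6, next 0.0916), cell 17 for Bmp2 (15.8, next 7.03) and cell 56 for Id1 (234, next 116).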

How the results depend on the processing

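Of 275 ratios of single members under the alternatives other than leaving out a cell, 240 moved by less than 1.5 times and 34 by more. Of the 111 that belong to a called ratio, 110 kept its direction. Some of these could not change: another pseudocount cannot turn the sign of a ratio. The filter on low means removed no member and left its ratios as they were, so both counts overstate stability. Smad6 in Bmp7-only over Bmp4-only cells was 0.50 with ligands detected at RPKM of at least 10, and with each cell left out in turn it ranged from -1.33 to 0.19. In the same way Bmp4 by Cited1 ranged from -0.90 to 1.66. The median of the Id genes in bud cells was -2.02 from means of log2 values. Called members in Six2-detecting over remaining cells were 2, and 0 with a pseudocount of 10, 1 with means of log2 values and 1 with Six2 detected at RPKM of at least 10 or above 0. For Bmp7-only over Bmp4-only cells they were 1, and 0 with a pseudocount of 10, 3 with means of log2 values, 2 with ligands detected above 0 and 3 in Six2-detecting cells alone. By Cited1 they were 5, and 1 with a pseudocount of 10, 1 with means of log2 values, 3 without cells with few genes and 2 with Cited1 detected at RPKM of at least 10. With each cell left out in turn, called members ranged from 4 to 7 for bud cells, from 1 to 2 for Six2-detecting cells, from 0 to 3 for Bmp7-only cells and from 3 to 5 by Cited1. Cells with both ligands were 9, and 4 at a limit of 10. With any value above 0 counted as detected there were more, among them remaining cell 5 (Bmp4 45.5, Bmp7 0.256). The cause was not tested. The share of all genes called was 31.5% for bud cells, 4.89% with a pseudocount of 10 and 18.6% from means of log2 values. For Six2-detecting cells it was 15.1%, 1.26% and 5.94%, and 25.0% with a pseudocount of 0.1. For Bmp7-only cells it was 20.4%, 1.55%, 7.74% and 31.2% in that order, and by Cited1 18.5%, 1.07%, 5.57% and 29.3%. Ratios from means of log2 values had the other sign for Bmp4 (0.08) and Bmper (-0.39) in Six2-detecting cells. No paired analysis was possible because all cells come from 1 pool. Read depth is unknown, so a gene not detected in a cell is not shown to be absent from it.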
